A study of Mus musculus with 2 samples.

Results

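The IL-1 family ligands and receptors were examined in droplet single-cell RNA sequencing of mouse alveolar organoids. They are 10 genes, taken by symbol from the 27998 genes counted in both libraries: the ligands Il1a, Il1b, Il18 and Il33, the receptor antagonist Il1rn, the receptors Il1r1 and Il1rl1, the accessory chain Il1rap, the decoy receptor Il1r2 and the adaptor Myd88. AT2 cells, the surfactant-producing progenitors of the lung alveolus, came from Sftpc-CreERT2;R26RTomato mice on a C57BL/6 background, in which tamoxifen switches on the Tomato reporter in cells that express surfactant protein C. The sorted cells were co-cultured with stromal cells, for 2 weeks by the series' description and until a later day by the study, which were cultured lung cells depleted of endothelial, epithelial and immune cells. Control organoids received PBS and the others received IL-1β protein, with 1 library each, and the labels state no age for these animals.

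IL-1α and IL-1β bind the receptor encoded by Il1r1, which signals only once the accessory chain encoded by Il1rap joins it, and the adaptor MyD88 then carries the signal to NF-kB and the MAP kinases. The antagonist encoded by Il1rn occupies the same receptor without signaling, and the decoy encoded by Il1r2 binds IL-1 but lacks a signaling domain. IL-33, an alarmin that is stored in the nucleus of barrier cells and is known from lung AT2 cells, acts through ST2, the product of Il1rl1, which pairs with the same accessory chain, whereas IL-18 uses its own receptor pair.

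In the GRCm38 genome, 6 genes of IL-1 family receptors lie side by side on chr1:40074079-40551705, in the order Il1r2, Il1r1, Il1rl2, Il1rl1, Il18r1 and Il18rap, all on the forward strand. Il1rl1 (chr1:40429570-40465415) ends 136 bases before Il18r1 begins. The annotated coding transcripts of Il1rl1 end at positions up to 24008 bases apart, those of Il1rap up to 22908 and those of Il1r2 up to 22795, and a count per gene cannot tell soluble from membrane-bound forms. Il1a (chr2:129299610-129309972) and Il1b (chr2:129364570-129371139) are neighbors on the reverse strand. Il1rn (chr2:24336853-24351494), Il18 (chr9:50554827-50581840), Il33 (chr19:29925114-29960718) and Il1rap (chr16:26581704-26730117) lie on the forward strand. Myd88 (chr9:119335934-119341411, reverse strand) overlaps Slc22a14 on its own strand, so its counts are less certain than the others. Il1a, Il1b, Il18, Il1r2, Il1rap and Myd88 also overlap genes on the opposite strand. How the counting treated strand is not given in the sources used here.

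The sequences upstream of Il1a and Il1rl1 are shown because these were the 2 members whose stromal levels differed most between the libraries. They are the 250 bases before a RefSeq start site in GRCm38.p6, printed 5′ to 3′ on the strand of the gene, with a match to the AP-1 motif TGANTCA in capitals. The Il1a window is chr2:129309973-129310222 on the reverse strand, and Il1rl1 has one window at its first start site, chr1:40429320-40429569, and one inside the gene, chr1:40439379-40439628, both on the forward strand.
Il1a: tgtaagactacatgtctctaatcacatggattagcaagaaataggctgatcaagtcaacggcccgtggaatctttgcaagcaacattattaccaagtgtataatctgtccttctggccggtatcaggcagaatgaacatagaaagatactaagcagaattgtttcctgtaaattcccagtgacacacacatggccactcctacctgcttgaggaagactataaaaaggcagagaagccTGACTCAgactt
Il1rl1, first start site: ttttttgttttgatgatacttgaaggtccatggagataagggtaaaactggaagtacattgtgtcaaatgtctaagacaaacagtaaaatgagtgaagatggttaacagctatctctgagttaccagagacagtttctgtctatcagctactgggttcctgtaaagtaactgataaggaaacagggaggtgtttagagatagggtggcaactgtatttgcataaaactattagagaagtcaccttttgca
Il1rl1, internal start site: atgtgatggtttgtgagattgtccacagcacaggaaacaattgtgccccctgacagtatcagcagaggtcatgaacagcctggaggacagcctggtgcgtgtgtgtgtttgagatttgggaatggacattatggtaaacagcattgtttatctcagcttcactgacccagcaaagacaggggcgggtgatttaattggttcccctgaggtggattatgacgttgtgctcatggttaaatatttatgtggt
In Il1a the AP-1 match lies just upstream of the start site, with its first base at position -12. Neither Il1rl1 window held a match to AP-1 or to the NF-kB motif on either strand. Among the windows of the 10 members, all of which have RefSeq entries, AP-1 was also matched upstream of Il1rn (tgctagacTGAGTCAcgcctctg, first base at position -141) and NF-kB at the internal start site of Il1r1 (gggattttGGAATGCCCCcaaggaga, first base at position -232). Of 32851 RefSeq windows of 300 bases, 7.81% held the AP-1 letters and 8.46% the NF-kB motif, which are descriptions of sequence and not of binding.

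The control library held 2101 cell barcodes and 33965848 unique molecular identifiers (UMIs), and the IL-1β library 3066 barcodes and 41220175 UMIs, with 11 barcodes in both. After the cell cutoffs, 2081 control and 3058 IL-1β cells were used. Levels are the UMIs of a gene summed over a cell class per 1000000 UMIs of that class (CPM), given with exact Poisson intervals at 95%, and the interval of a ratio is the exact binomial one. With 1 library per condition there is no replicate and no test of the treatment: an interval covers counting error only, and a difference is one between 2 libraries. Clustering without the members and their pathway genes gave 908 control and 2010 IL-1β AT2-lineage cells, 261 and 422 AT1-like cells, 31 and 104 DATP-like cells (damage-associated transient progenitors, the Krt8-high intermediate), and 777 and 452 stromal cells. Stromal markers such as Col1a1 and Pdgfra were detected in AT2-lineage cells at a median of 2.13% of their stromal level in control and 2.25% in IL-1β, and AT2 markers such as Sftpc in stroma at a median of 2.86% and 4.76% of their AT2-lineage level. In 21 of the 24 clusters, 95% or more of the cells belonged to a single library, and stromal clusters split in the same way. Control stroma lay mainly in clusters S0, S3, S4, S5 and S7, and IL-1β stroma in S1, S2 and S6. AT2-lineage pools clusters named by markers of AT2 cells or of the study's primed AT2 state. It includes E2 (527 IL-1β cells), where DATP markers scored slightly higher (mean log2 fold 0.24 against 0.09). Of its 908 control cells, 892 lay in E0, which held 0 IL-1β cells. Of the AT1-like cells, 259 of control lay in E6 and 416 of IL-1β in E4, led by the DATP marker AW112010. The AT1 markers Hopx and Rtkn2 were also among the 10 leading genes of E4. All 31 control DATP-like cells lay in E9, and 98 of the 104 IL-1β ones lay in E7, which held 0 control cells. Ratios in the AT2-lineage, AT1-like and DATP-like classes, and in stroma, thus compare mostly different clusters. The DATP-like class was absent from at least 1 library in 5 of 8 reclusterings, and the AT1-like class held under 10 IL-1β cells in 4 of 8. Values within these 2 classes thus depend on how cells were grouped.

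Il33 was the ligand of the epithelium. In AT2-lineage cells its level was 285 CPM in control (276 to 294) and 272 CPM in IL-1β (265 to 279), from 3750 and 6413 UMIs. The level was about the same in both libraries, at a ratio of 0.95 (0.92 to 0.99). With every cell thinned to 5000 UMIs, 66.2% of control (63.0 to 69.3) and 65.1% of IL-1β AT2-lineage cells (63.0 to 67.2) had an Il33 UMI, against 89.0% and 83.3% before thinning. Il33 stood 5.66-fold higher in AT2-lineage than in AT1-like cells in control (4.89 to 6.58) and 13.9-fold higher than in stroma (12.3 to 15.8). Among control classes of at least 50 cells, the order from highest to lowest was AT2-lineage, cycling epithelial (226 CPM, 204 to 250), AT1-like and stromal, with no overlap between neighbors. In the IL-1β library, which had few cycling cells, it was AT2-lineage, DATP-like, AT1-like and stromal, again without overlap. AT2-lineage cells held 79.8% of the Il33 UMIs of control and 87.2% of those of IL-1β.

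In AT1-like cells Il33 was 50.3 CPM in control (43.4 to 58.0) and 83.6 CPM in IL-1β (76.1 to 91.6), a ratio of 1.66 (1.40 to 1.98). The intervals of the 2 libraries did not overlap, but the ratio is under the 2-fold asked of a call, and it lay between 0.66 and 3.97 over the other settings, in 2 of which it was called higher. After thinning, 13.3% of control (9.30 to 18.1) and 24.9% of IL-1β AT1-like cells (20.8 to 29.3) had an Il33 UMI, and unthinned 25.3% and 42.4%. In these same cells, AT2 markers stood at a median of 28.4% of their AT2-lineage level in control and 39.0% in IL-1β, against 17.7% and 30.7% for Il33, and their part in the difference was not tested. In DATP-like cells Il33 was 169 CPM in control (134 to 211), from 31 cells and overlapping the cycling cells, and 123 CPM in IL-1β (103 to 144). Its ratio there of 0.72 (0.55 to 0.97) turned to above 1 in 3 of 4 alternatives. In stroma it was 20.4 CPM (18.1 to 23.0) and 16.1 CPM (13.6 to 18.9), or 7.18% of the AT2-lineage level in control, above the median of the AT2 markers found there and below that of Etv5, the highest, at 16.5%.

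Il1a, the other ligand of Il1r1, was found mainly in stroma of the IL-1β library, with 5 UMIs in all control cells and 67 in all IL-1β cells. Stromal cells held 3 Il1a UMIs in control, at 0.23 CPM (0.05 to 0.67), and 60 in IL-1β, at 6.62 CPM (5.05 to 8.52). The ratio was 29.0 (9.47 to 145). All 3 control UMIs came from a single cell, whereas 24 IL-1β cells had one or more. The UMIs were unevenly spread among those, with 25.0% in the top cell and 58.3% in the top 5. After thinning, 0 of 758 control and 11 of 450 IL-1β stromal cells had an Il1a UMI, or 2.44% (1.23 to 4.33), and unthinned 0.13% and 5.31%. Il1a was at 3.36 CPM in cluster S1, 5.88 CPM in S2 and 15.1 CPM in S6, where 15 of the 23 UMIs sat in 1 cell. In AT2-lineage cells Il1a had 0 UMIs in control and 6 in IL-1β, or 0.25 CPM, which is 3.84% of the stromal level and within the range of the stromal markers (1.68% to 5.60%).

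Il1b had no UMI in any of the cells used. The exact Poisson intervals therefore allow at most 0.113 CPM in control and 0.0909 CPM in IL-1β. A count of 3 would be 0.0917 and 0.0739 CPM. Among all 75186023 deposited UMIs there was 1 of Il1b, in an IL-1β barcode above the maximum of 7000 genes. The treatment itself was IL-1β protein, which adds no transcript. In mouse lungs the study detected Il1b specifically in macrophages. Only 4 control cells and 0 IL-1β cells were named macrophage-like here. Il18 was low everywhere. Its stromal level was 7.52 CPM in control (6.11 to 9.16) and 3.86 CPM in IL-1β (2.69 to 5.37), and the intervals did not overlap, at a ratio of 0.51 (0.34 to 0.76). It was called lower in 3 of 12 alternatives (0.34 to 0.56 over all of them). In AT2-lineage cells Il18 was 0.84 CPM (0.42 to 1.49) and 1.44 CPM (1.00 to 2.01), with overlapping intervals.

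Among the classes compared, the antagonist Il1rn was highest in stroma, where it was carried by few cells. Stroma held 25.1 CPM in control (22.4 to 27.9) and 21.4 CPM in IL-1β (18.5 to 24.6), from 330 and 194 UMIs. The intervals overlapped, and the ratio was 0.85 (0.71 to 1.02). In control, 67 of 777 stromal cells had an Il1rn UMI and 6 cells held 50% of them, with 63 UMIs in the top cell. In IL-1β, 44 of 452 cells had one, and again 6 cells held 50%. Among control clusters Il1rn was highest in S5, led by Bglap2 and Aspn, at 64.8 CPM, followed by S4 at 35.3 and S0 at 27.5 CPM, and had no UMI in the 74 cells of S7, led by Cadps and Nkd2. In the IL-1β library it was 22.9 CPM in S2, 8.96 CPM in S1 and 1.96 CPM in S6. The 22 IL-1β cells of S4 reached 90.0 CPM (68.4 to 116), with 53.4% of their UMIs in 1 cell. These 22 cells also held 210 UMIs of 4 endothelial markers, of which 94 were Cldn5, against 4 in the 85 control cells of S4. The part of endothelial cells in the levels of S4 was not tested. AT2-lineage cells had 0.76 CPM in both libraries, from 10 and 18 UMIs, or 3.03% and 3.57% of the stromal level.

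**Figure D1:**
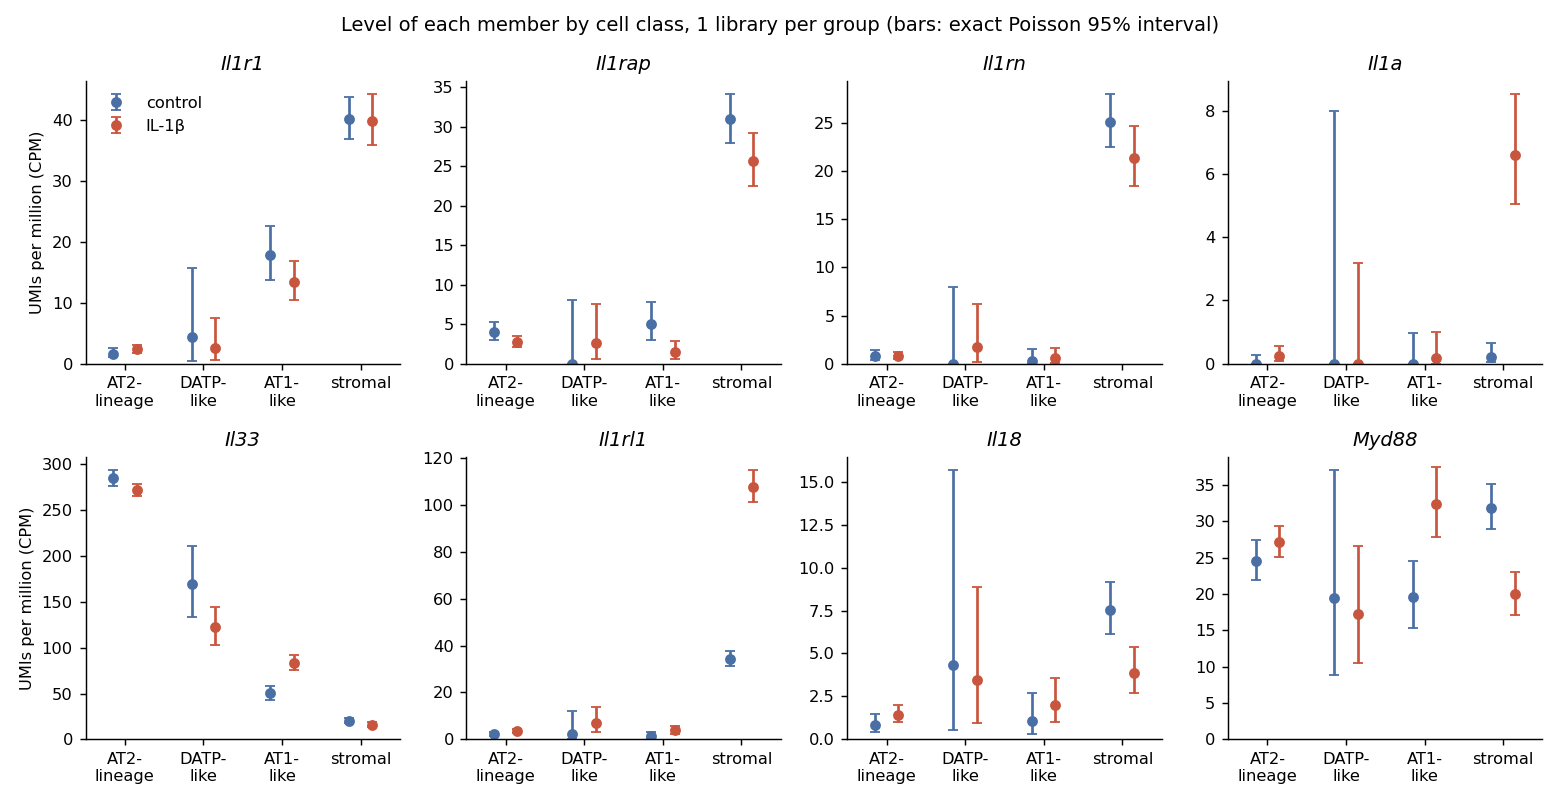
Level in CPM of the 8 members other than Il1b and Il1r2 in AT2-lineage, DATP-like, AT1-like and stromal cells, as points for the control (blue) and IL-1β (red) libraries with exact 95% Poisson intervals as bars; each panel has its own linear axis. Il33 lies highest in AT2-lineage cells (285 and 272 CPM) and Il1r1 in stroma (40.1 and 39.8 CPM).

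Il1r1, the signaling receptor for IL-1, was highest in stroma, where the intervals of the libraries overlapped. Its stromal level was 40.1 CPM in control (36.8 to 43.7) and 39.8 CPM in IL-1β (35.8 to 44.1), with a ratio of 0.99 (0.87 to 1.14). In AT2-lineage cells it was 1.67 CPM (1.05 to 2.53) and 2.37 CPM (1.79 to 3.08), from 22 and 56 UMIs. The intervals overlapped, and the ratio was 1.42 (0.85 to 2.44). AT1-like cells lay between, at 17.8 CPM in control (13.8 to 22.5) and 13.4 CPM in IL-1β (10.5 to 16.8), also with overlap. Stroma exceeded AT2-lineage cells 24.0-fold in control (15.7 to 38.7) and 16.8-fold in IL-1β (12.6 to 22.6). AT1-like cells exceeded AT2-lineage cells 10.6-fold (6.48 to 18.1) and 5.64-fold (3.93 to 8.13).

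The small Il1r1 level of AT2-lineage cells was set beside the UMIs of stromal marker genes found in these cells. It amounted to 4.16% of the stromal level in control and 5.96% in IL-1β, against a range of 1.40% to 7.65% and 1.68% to 5.60% for the 8 stromal markers, of which Sparc was highest. The other 7 markers reached 2.58% and 3.05%, below Il1r1. In AT1-like cells it was 44.2% and 33.6% of the stromal level, where all stromal markers except Sparc (87.5% and 46.8%) were at 3.35% or less. After thinning, 0.56% of control (0.18 to 1.31) and 0.85% of IL-1β AT2-lineage cells (0.49 to 1.35) had an Il1r1 UMI, against 8.03% and 6.40% of AT1-like and 17.5% and 18.0% of stromal cells. Without thinning these shares were 2.42% and 2.79% in AT2-lineage, 21.1% and 15.4% in AT1-like, and 40.7% and 47.8% in stromal cells, at median depths of 13953 and 11230.5, 12374 and 11560.5, and 15622 and 14777 UMIs. Within stroma, Il1r1 ranged from 30.4 to 56.0 CPM across all clusters named above and was spread over many cells, 92 of which held 50% of the control UMIs. The 28 control cells of S10, led by Tagln and Acta2, had no Il1r1 UMI, with a median depth of only 6465 UMIs.

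**Figure D2:**
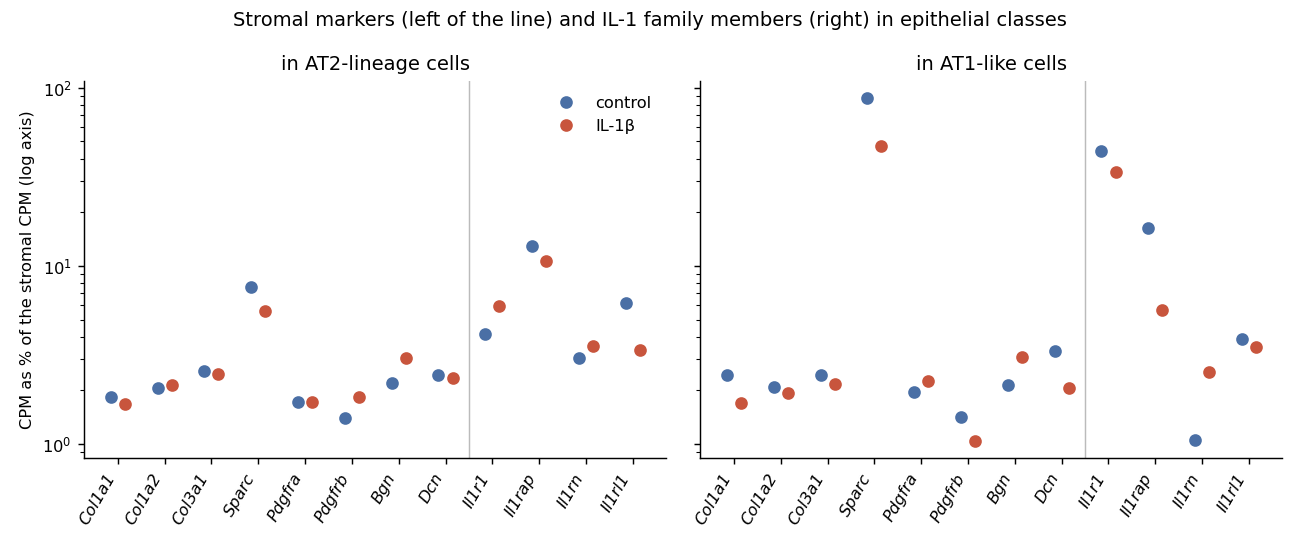
CPM in AT2-lineage cells (left panel) and AT1-like cells (right panel) as a percentage of the stromal CPM on a log axis, for 8 stromal marker genes and, right of the line, Il1r1, Il1rap, Il1rn and Il1rl1, in control (blue) and IL-1β (red). Il1r1 in AT1-like cells (44.2% and 33.6%) lies far above the median of the stromal markers (2.29% and 2.11%), and in AT2-lineage cells (4.16% and 5.96%) it lies above 7 of the 8, below Sparc in control (7.65%) and above it in IL-1β (5.60%). Sparc in AT1-like cells stands at 87.5% and 46.8%.

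Il1rap, the shared accessory chain, was also highest in stroma, while the intervals of AT1-like and AT2-lineage cells overlapped in each library. Stroma had 30.9 CPM in control (28.0 to 34.1) and 25.7 CPM in IL-1β (22.5 to 29.2), with overlapping intervals and a ratio of 0.83 (0.70 to 0.98). AT2-lineage cells had 4.02 CPM (3.01 to 5.26) and 2.76 CPM (2.13 to 3.51), or 13.0% and 10.7% of the stromal level, above each of the stromal markers. AT1-like cells had 5.03 CPM in control (3.03 to 7.86), from 19 UMIs, and 1.45 CPM in IL-1β (0.62 to 2.85), from 8. These intervals did not overlap, and the ratio was 0.29 (0.11 to 0.69). Il1r1 and Il1rap were detected together in 123 of 777 control (15.8%) and 78 of 452 IL-1β stromal cells (17.3%). In AT2-lineage cells they were detected together in 1 of 908 and 2 of 2010. Each gene alone was rare there, with Il1r1 in 22 and 56 cells and Il1rap in 53 and 65. In stroma Il1r1 was found in 316 and 216 cells and Il1rap in 257 and 145. Whether the pair departed from these separate shares was not tested. The stromal cells with both had median depths of 21394 and 29474.5 UMIs, above the stromal medians. In stroma, Il1rap was highest in S7 in control, at 55.9 CPM, and in S6 in IL-1β, at 48.5 CPM. The decoy Il1r2 was close to absent, with 7 control and 9 IL-1β UMIs in stroma and 1 in AT2-lineage cells.

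Among the members, Il1rl1, which encodes the IL-33 receptor ST2, was the receptor called in stroma. It was 34.2 CPM in control (31.1 to 37.5) and 108 CPM in IL-1β (101 to 115), from 450 and 977 UMIs. The IL-1β level was higher, with no overlap, at a ratio of 3.15 (2.81 to 3.53). After thinning, 6.46% of control (4.82 to 8.46) and 17.8% of IL-1β stromal cells (14.4 to 21.6) had an Il1rl1 UMI, and unthinned 15.6% and 31.0%. In AT2-lineage cells Il1rl1 was 2.13 CPM (1.41 to 3.07) and 3.65 CPM (2.92 to 4.50), or 6.22% and 3.38% of the stromal level. Of all Il1rl1 UMIs, stroma held 92.4% in control and 87.3% in IL-1β.

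The stromal difference in Il1rl1 depended in large part on 1 cluster of the IL-1β library, and it was called in 10 of 12 alternatives. In the IL-1β library, the 75 cells of S6, led by Mmp10, Il11 and Areg, had 354 CPM (324 to 385) and 540 UMIs, against 57.9 CPM in the other stroma, which is 6.10-fold higher (5.37 to 6.94). S6 was 75 of the 452 IL-1β stromal cells, with 540 of their 977 Il1rl1 UMIs. These were unevenly spread, with 270 of the 540 in 5 cells and one or more in 42 of the 75. Of the whole IL-1β library, epithelium included, S6 was 2.45% of the cells and held 48.3% of the Il1rl1 UMIs. In control the 85 cells of S4, led by Fmod and Acta2, had 102 CPM and 212 UMIs, 4.77-fold above the other stroma (3.95 to 5.77). Of these 212 UMIs, 109 lay in 5 cells, and 37 of the 85 cells had one or more. The other control clusters were at 33.9 CPM in S7, 32.3 in S0, 6.41 in S5 and 3.21 in S3, and the other IL-1β clusters at 82.3 CPM in S1 and 52.9 in S2. The 22 IL-1β cells of S4 had 31.1 CPM (19.0 to 48.0), from 20 UMIs, which is 0.27 of the other IL-1β stroma (0.17 to 0.42) and below the control cells of S4. As given for Il1rn, these 22 cells also held UMIs of endothelial markers. Without S6 the ratio was 1.69 (1.48 to 1.94) and was no longer called. S6 held 0 control cells, so leaving it out lowered the IL-1β level only, while control kept S4, its highest cluster. With every deposited barcode it was 1.89 (1.73 to 2.07) and was not called either. Of the 907 control Il1rl1 UMIs of all deposited barcodes, 420 (46.3%) lay in the 18 barcodes above the gene maximum, 201 and 160 of them in 2 barcodes. Of the 1288 IL-1β UMIs, 13.0% lay in such barcodes.

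S6 carried all 8 stromal markers, with 13955 UMIs. Because ST2 is also known from mast cells and innate lymphoid cells, markers of those cells were counted in S6. Of the mast cell and basophil list, Cpa3, Mcpt4 and Ms4a2 were at 0 and 49 of the 51 UMIs were Mcpt8. Of the T and innate lymphoid list, Cd3e, Il7r and Lck were at 0, with 7 UMIs in all, and Ptprc and 6 other macrophage markers of 9 were at 0 as well. The neutrophil list had 309 UMIs, of which 308 were S100a8, with S100a9 and Csf3r at 0, and the endothelial list had 9. The part of such cells in the Il1rl1 level was not tested further.

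**Figure D3:**
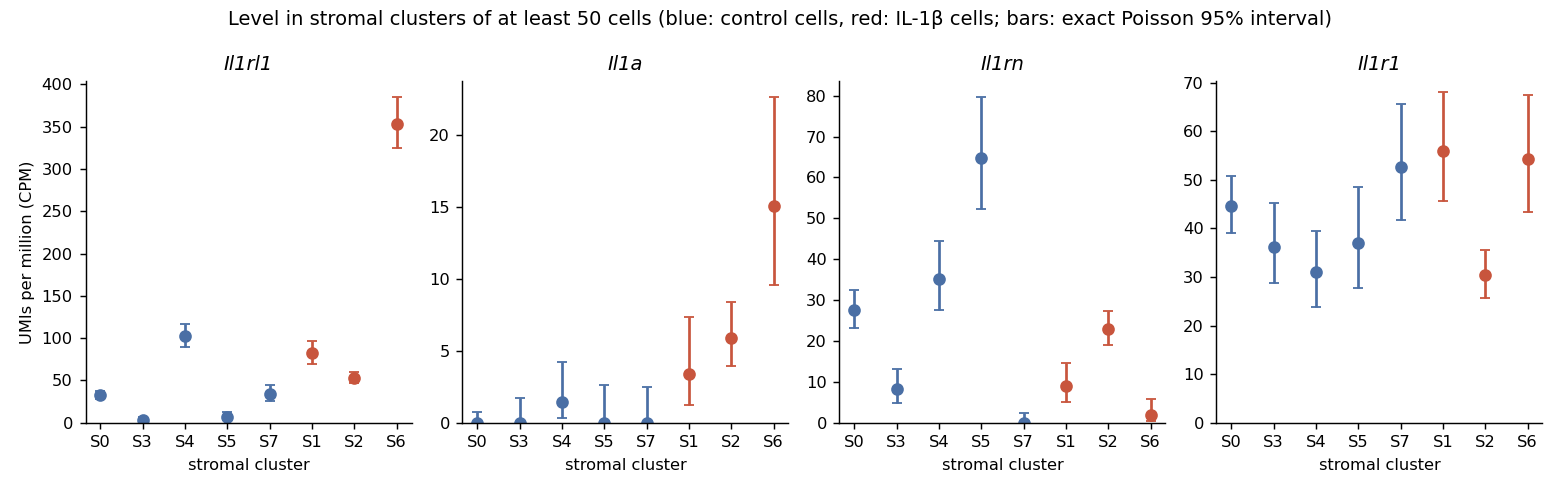
Levels of Il1rl1, Il1a, Il1rn and Il1r1 in CPM (linear axes) in the stromal clusters with at least 50 cells of a library, with control clusters in blue, IL-1β clusters in red and exact 95% Poisson intervals as bars. Il1rl1 is highest in the IL-1β cluster S6 (354 CPM) and, in control, in S4 (102 CPM), whereas Il1r1 lies between 30.4 and 56.0 CPM in all clusters shown.

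**Figure D4:**
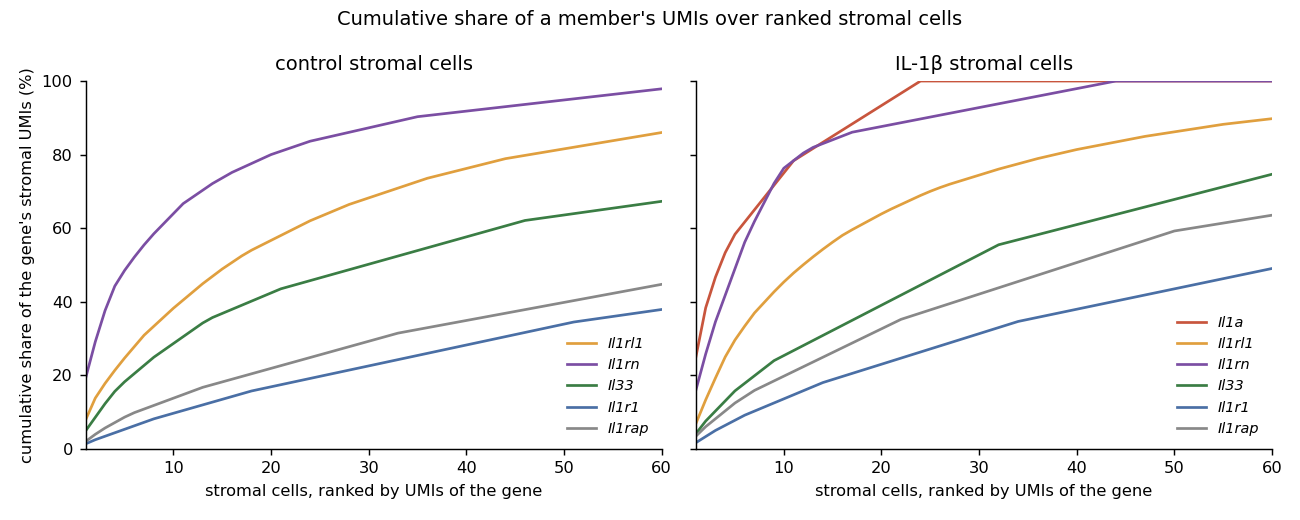
Cumulative percentage of the stromal UMIs of each of 6 members over the 60 stromal cells with the most UMIs of that member, ranked from most to fewest, in control (left) and IL-1β (right); Il1a is drawn for IL-1β only. Il1rn reaches 50% within 6 cells in both libraries and Il1rl1 within 16 control and 12 IL-1β cells, while Il1r1 needs 92 and 62 cells, more than the axis holds.

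Myd88, the adaptor of the IL-1, IL-18 and IL-33 receptors and of most Toll-like receptors, was found in each of the 4 classes compared, with levels from 17.3 to 32.4 CPM. AT2-lineage cells had 24.6 CPM in control (22.0 to 27.4) and 27.1 CPM in IL-1β (25.1 to 29.3), with overlap. In AT1-like cells it was 19.6 CPM (15.4 to 24.6) and 32.4 CPM (27.8 to 37.5), higher in IL-1β without overlap at a ratio of 1.65 (1.25 to 2.20). In stroma it was 31.9 CPM (28.9 to 35.1) and 19.96 CPM (17.2 to 23.1), lower in IL-1β without overlap at a ratio of 0.63 (0.52 to 0.75). Myd88 in stroma was thus 1.30-fold the AT2-lineage level in control (1.12 to 1.51) and 0.74-fold in IL-1β (0.62 to 0.87).

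A gene was called when it differed at least 2-fold with an interval that excluded 1, among genes with at least 20 UMIs in the class. In AT2-lineage cells 0 of the 7 members with enough UMIs were called, where 13.6% of all 12629 genes tested were (9.41% higher and 4.23% lower). Without the 5 cells with the most UMIs of each member, Il18 and Il1rl1 were called. That removal took a larger share of the control UMIs. For Il18 it took 5 of 11 in control and 6 of 34 in IL-1β, and for Il1rl1 6 of 28 and 7 of 86. The median log2 ratio of the members was 0.14, against 0.13 over all genes. In stroma 2 of 8 were called, Il1a and Il1rl1, both higher, where 17.8% of 12704 genes were called in either direction and 4.96% were higher. The median stromal log2 ratio was -0.25 for the members and -0.34 over all genes. In AT1-like cells 2 of 5 were called, where 10.2% of 10969 genes were: Il1rap lower, and Il1rl1 higher from 5 and 21 UMIs at a ratio of 2.87 (1.05 to 9.73). Il1rl1 there was 3.87% of its stromal level in control and 3.53% in IL-1β. Stromal markers other than Sparc reached 3.35% and 3.08% in these cells, and the part of stromal transcripts in this call was not tested. In either direction alone, 5.63% of all genes were higher and 4.52% lower. Il1rap was called in 2 of the 6 alternatives that gave it a ratio (0.20 to 0.45) and Il1rl1 in 0 of 5 (1.79 to 2.70). In DATP-like cells 0 of 2 were called, where 12.4% of 7551 genes were. The members with too few UMIs in all 4 classes were Il1b and Il1r2.

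**Figure D5:**
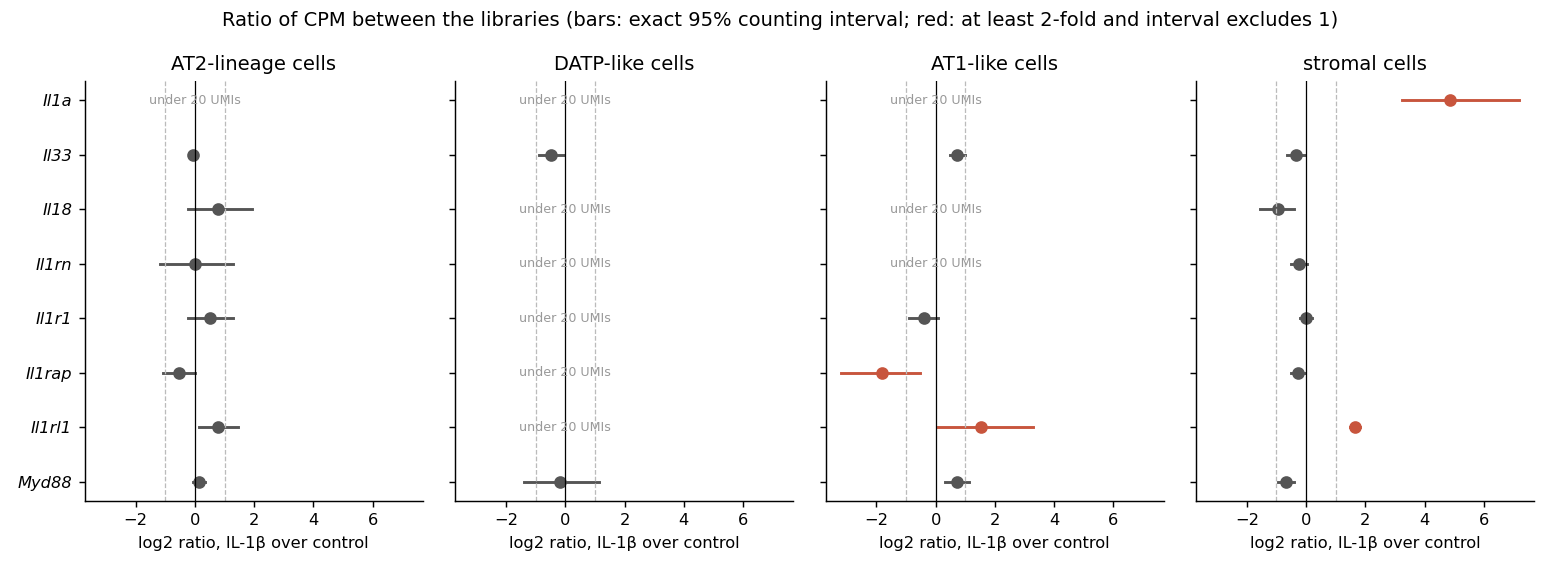
Log2 ratio of IL-1β over control for 8 members in 4 cell classes, with exact 95% intervals as bars, dashed lines at 2-fold, called members in red and members with under 20 UMIs marked as such. Il1a (ratio 29.0) and Il1rl1 (3.15) lie above the upper limit in stroma, and Il1r1 lies at a ratio of 0.99 there.

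The other genes of the pathway were taken as 49 genes in 5 lists. These were chosen with earlier results of these data known, so their counts are a description and not an independent test. Of 11 genes known to be induced by IL-1, 9 were higher in AT2-lineage cells of the IL-1β library, where 9.41% of all genes were higher, and none was lower. Saa3, an acute-phase protein, was 559 CPM in control and 3254 CPM in IL-1β, a ratio of 5.82 (5.69 to 5.96). Lcn2, which binds bacterial siderophores, was 3614 and 18580 CPM, a ratio of 5.14. The chemokines Cxcl1 and Cxcl5, which attract neutrophils, had ratios of 4.42 and 4.31, and Nfkbia, the feedback inhibitor of NF-kB, of 3.62. In AT1-like cells 10 of the 11 were higher, where 5.63% of all genes were, in DATP-like cells 7 of 10, where 6.6% were, and in stroma 5 of 11, where 4.96% were, with Saa3 at a ratio of 6.14, Lcn2 at 6.66 and Il6 at 4.17 (62.7 to 262 CPM). Of the 13 adaptors and kinases other than Myd88, 0 of 13 were called in AT2-lineage cells, 0 of 12 tested in AT1-like cells and 0 of 13 in stroma, where 13.6%, 10.2% and 17.8% of all genes were called. In DATP-like cells Ikbkg and Tab2 were lower, of 9 tested, where 5.76% of all genes were.

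The 2 chains of the IL-18 receptor were higher in the AT2-lineage cells of the IL-1β library. Both were also called higher in DATP-like cells and in stroma, and Il18rap in AT1-like cells. Il18r1, the binding chain, was 50.5 CPM in control and 179 CPM in IL-1β AT2-lineage cells, a ratio of 3.55 (3.27 to 3.86). Il18rap, the accessory chain next to it on chromosome 1, was 2.88 and 42.9 CPM, a ratio of 14.9 (10.8 to 21.2). Neither chain had overlapping intervals. AT1-like cells had the highest Il18r1 of the classes compared, at 273 and 384 CPM, and the ratio of 1.40 was not called. In stroma Il18r1 was 3.95 and 10.8 CPM, a ratio of 2.73 (1.93 to 3.91). AT2 markers in stroma stood at 2.06% to 16.5% of their AT2-lineage level in control and 3.74% to 20.3% in IL-1β. The part of epithelial transcripts in the stromal Il18r1 level was not tested. The inhibitor Il18bp was 2.03-fold higher in AT2-lineage cells (1.58 to 2.63) and 2.45-fold in AT1-like cells (1.80 to 3.38). Of the processing and release genes tested, Casp4, the inflammatory caspase, was 1.21 and 9.07 CPM in AT2-lineage cells, a ratio of 7.47 (4.49 to 13.3), and Pycard and Gsdmd were also higher. In stroma Casp1, which cleaves pro-IL-1β and pro-IL-18, was lower, with 22 and 4 UMIs, where 12.8% of all genes were lower. Among the other ligands, Il1f9, which encodes IL-36γ, was higher in AT2-lineage cells from 4 and 32 UMIs (ratio 4.47, 1.58 to 17.4). Il1f6, which encodes IL-36α, had 0 and 24 stromal UMIs. The IL-1β level was 11.6-fold that of an assumed 3 counts in control, which is no lower limit, and all 24 lay in 1 cell of S4.

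The genes whose levels were most like those of a member were ranked by Pearson's r of log2(CPM + 1) over the 8 pools of at least 50 cells, among 11465 genes. The pools share 2 libraries and the same few cell classes, so many genes reach high values. For Il1rl1 they were Ptgs2 (r = 0.996), which encodes the inducible cyclooxygenase, Parm1 (0.994) and Gfra2 (0.993). For Il33 they were Ica1 (0.990), Tmem42 and Stx19 (both 0.987), and for Il1r1 Fndc3b (0.989), Zfc3h1 (0.984) and P3h1 (0.983). Il1rn was most like Cnrip1, Tshz3 and Fgfr1, Il1rap like Vkorc1, Mdga2 and St8sia4, Il18 like Zfp52, Abhd18 and Rxra, and Myd88 like Ccl5, Tdrp and Hexim2.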

How the data were processed

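Single-cell RNA was measured with 10x Genomics 3′ chemistry in 1 control and 1 IL-1β library. The authors deposited raw UMI counts per gene and barcode, made with Cell Ranger on GRCm38, and their notes also name Scanpy 1.3.6. The files hold barcodes before the study's cutoffs. As in the study's methods, a barcode had to show over 500 but under 7000 genes and over 2000 UMIs. The study's scrublet rule marked 3 of 5142 cells (0.0583%), so doublets remain. Cells were clustered with scanpy 1.11.5 (50 principal components, 15 neighbors, Leiden resolution 1.0), leaving out 59 member and pathway genes, first to separate stroma and then within each side. Clusters were named from marker lists by a rule set after the clusters had been seen. The members and lists were chosen with earlier results of these data known. A gene is called at 2-fold or more with a 95% interval that excludes 1, among genes with at least 20 UMIs in the class. No p-value was computed. All members and the 10 pathway genes called most firmly in each comparison were eligible to be named, and Il18bp, Pycard, Gsdmd, Il1f9 and Tab2 were added after their values were seen. The ratio and interval steps were tested on simulated Poisson counts, the model that the intervals assume. Uneven spread of a gene over cells was not simulated. Alternatives were run for the doublet removal, the cell cutoffs, the clustering, minimum UMIs, totals, thinning depth and single cells or clusters left out. Gene positions are from GENCODE M21. The in vivo libraries of the study were not analysed here.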

Additional observations from a re-analysis of the deposited data

Results flagged for a closer look

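The IL-1β over control ratio of Il33 lay above 1 in AT1-like cells, at 1.66 (1.40 to 1.98), and below 1 in AT2-lineage cells at 0.95 (0.92 to 0.99), DATP-like cells at 0.72 (0.55 to 0.97) and stromal cells at 0.79 (0.64 to 0.97). Over the alternatives the AT1-like ratio ran from 0.66 to 3.97 and the DATP-like one from 0.70 to 3.23, so the direction in these 2 classes changed with the setting. Myd88 was likewise above 1 in AT1-like cells, at 1.65 (1.25 to 2.20), and below 1 in stroma, at 0.63 (0.52 to 0.75). On the log2 scale, stromal Il33 was at -0.34 and stromal Myd88 at -0.68, where the median over all genes in stroma was -0.34. In AT1-like cells they were at 0.73 and 0.72, where that median was 0.002. Each class has 1 library per condition, and the difference between classes was not tested.

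Il1rn appeared outside the compared classes, in an unnamed epithelial cluster of 34 IL-1β cells (E10) with Ccl20, Spib and Pglyrp1 among its leading genes. Its level there was 63.1 CPM (43.7 to 88.2), against 0.76 CPM in AT2-lineage cells and 21.4 CPM (18.5 to 24.6) in stroma of the same library. The cluster held 34 Il1rn UMIs in 11 cells, 76.5% of them in 5 cells. After thinning to 5000 UMIs, 6 of the 34 cells (17.6%, 6.76 to 34.5) had an Il1rn UMI, against 0.45% of AT2-lineage cells. Only 1 control cell lay in this cluster, so the libraries cannot be compared there.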

How the results depend on the processing

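No paired analysis was possible because each condition has 1 library. Of 212 member ratios recomputed under the alternatives, 193 kept their side of the call, 11 lost it and 8 gained it. In stroma 2 members were called, 1 (Il1a) with every deposited barcode or without cluster S6, and 3 at resolution 0.5, with totals that leave out surfactant, mitochondrial and ribosomal genes, and without the 5 cells with the most UMIs of each member, where Il18 was also lower (0.34, 0.50 and 0.45). Il1a was called in all 10 alternatives that gave a value (21.5 to 33.2), and Il1rl1 in 10 of 12 (1.69 to 5.22). In AT1-like cells 2 members were called, and 1 in each of 4 alternatives. It was Il1rap, lower, with every deposited barcode (0.35) and with those totals (0.27), and Il33, higher, without the 5% of highest scrublet scores (3.97) and with another seed (2.49). The count was 0 at resolutions 0.5 and 2.0, with all highly variable genes, with Louvain clustering, with each library clustered separately, and without those 5 cells. In DATP-like cells the count was 0, and 1 (Il33, higher) at resolution 2.0 (3.23, from 8 control UMIs in 5 cells) and with another seed. The DATP-like Il33 ratio, 0.72, also turned to 1.47 with all highly variable genes and 1.08 without those 5 cells, and the AT1-like one, 1.66, fell to 0.66 at resolution 2.0. In AT2-lineage cells the count was 0, and 2 (Il18 and Il1rl1) without those 5 cells, whose removal took a larger share of the control UMIs. The alternatives that left out S6 or the top 5 cells were chosen after seeing the data. The cause of these changes was not tested. Depth limits Il1b, Il1r2 and the AT2-lineage values of Il1r1, Il18 and Il1rn, which rest on few UMIs.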
